A study of Rattus norvegicus with 9 samples.

Results

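The microRNAs (miRNAs) miR-21, miR-146 and miR-34a were measured on a rat array. They are linked to tissue repair and fibrosis, to inflammation and to the p53 response. They were chosen by probe name and make up 3 of the 334 miRNA probes. The arrays measured soleus, a slow postural muscle of the hindlimb, of male Sprague-Dawley rats aged 6 months. Of 9 arrays, 3 came from control rats, 3 from rats after 2 days of hindlimb suspension and 3 from rats after 7 days. Suspended rats hung by a glued tail device with the hindlimbs clear of the cage, a way to unload the muscle and cause atrophy, and the device was fitted under pentobarbital. The labels do not mention a sham device or anaesthesia for the controls. They do not say that replicates came from separate animals either, so p-values cover the spread between these samples, which may be technical.

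A miRNA is a short RNA that lowers the output of messenger RNAs that it pairs with through its seed, bases 2 to 8 from the 5′ end. In human and mouse cells, miR-21 is a miRNA of injured and growing tissue that targets Pdcd4, and in fibroblasts it is tied to matrix build-up. MiR-146a is induced through NF-kB and targets Traf6 and Irak1, members of that same pathway, so that it acts as a brake on inflammation. MiR-34a is a direct transcription target of p53 and represses cell cycle and survival genes, Sirt1 among them. These roles are background and were not measured here.

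The seed decides which relatives belong with each miRNA, and the whole target matters for what else its probe could bind. The array targets of the 3 probes are therefore printed first. They are copied from the scanner files, 5′ to 3′, with the seed in capitals:
rno-miR-21: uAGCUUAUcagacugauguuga
rno-miR-146: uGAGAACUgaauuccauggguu
rno-miR-34a: uGGCAGUGucuuagcugguuguu

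The miR-21 and miR-146 targets are identical to the RefSeq mature miRNAs rno-miR-21-5p and rno-miR-146a-5p (build GRCr8), so the probe called miR-146 is directed at miR-146a. The miR-34a target is 23 bases long and carries 1 more base at its 3′ end than the RefSeq rno-miR-34a-5p of 22 bases. The hairpins show the arm that was measured, in capitals. In GRCr8, Mir21 lies at chr10:71902600-71902691 on the minus strand, outside any other annotated gene and 532 bases from the coding gene Vmp1. Mir146a lies at chr10:28349996-28350090 on the minus strand, within the span of a long non-coding RNA gene (LOC134480673). Mir34a lies at chr5:165815952-165816053 on the plus strand, within the span of a long non-coding RNA gene (LOC103692514).
Mir21: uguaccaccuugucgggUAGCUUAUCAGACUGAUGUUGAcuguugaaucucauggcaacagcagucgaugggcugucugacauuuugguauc
Mir146a: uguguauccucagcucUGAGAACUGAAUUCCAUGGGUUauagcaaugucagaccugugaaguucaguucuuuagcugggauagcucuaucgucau
Mir34a: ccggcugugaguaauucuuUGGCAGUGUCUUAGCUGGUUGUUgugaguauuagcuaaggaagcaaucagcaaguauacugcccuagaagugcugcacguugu

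Relatives with the same seed are given next, although a shared seed alone does not set what a probe binds. No other probe on the array has the seed of miR-21 or of miR-146. RefSeq holds a second rat miRNA with the miR-146 seed, rno-miR-146b-5p, which is identical to rno-miR-146a-5p over its first 17 bases and then differs by G18A and U21C (positions from the 5′ end, miR-146a base first), with 2 more bases at its 3′ end. Signal from it on the miR-146 probe cannot be told apart from signal of miR-146a. The seed of miR-34a is also in the targets of miR-34c and miR-449, and 1 base further in that of miR-34b, shown here with those 7 bases in capitals. RefSeq gives the miR-34b seed in the usual place.
rno-miR-146b-5p: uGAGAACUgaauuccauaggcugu
rno-miR-34b: uaGGCAGUGuaauuagcugauug
rno-miR-34c: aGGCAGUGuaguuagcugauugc
rno-miR-449: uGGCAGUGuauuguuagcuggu

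All 3 miRNAs were detected on all 9 arrays, with all 9 repeat spots of each probe above the empty-spot limit (the 95th percentile of the array's spots without a probe, 31.6 to 73.3 units of scanner brightness). MiR-21 was 78.4 to 333 times that limit and miR-146 was 31.8 to 83.9 times. MiR-34a was dim, at 1.98 to 7.55 times the limit. MiR-34b, miR-34c and miR-449 were detected on no array, so of these 4 miRNAs only miR-34a gave a measurable signal, which says only that the others lay under this limit. Brightness also depends on the probe, so levels of different probes are not set against each other.

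Before any normalisation the mean brightness of miR-21 on control arrays 1, 2 and 3 was 5522, 9147 and 8719. It was 11237, 5746 and 6826 after 2 days and 8858, 8505 and 8737 after 7 days. The highest value was on a 2-day array and the lowest on a control array, and the 7-day arrays lay close together, within the range of the controls. MiR-146 had a brightness of 2193, 3064 and 2345 in controls, 2109, 2330 and 2560 after 2 days and 2519, 2684 and 3111 after 7 days. On this scale the 3 groups of miR-146 overlapped, and the 7-day mean (2771 ± 305, SD, n = 3) was the highest. MiR-34a had a brightness of 199, 178 and 109 in controls, 66.6, 230 and 189 after 2 days and 105, 162 and 290 after 7 days, and its groups overlapped too.

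**Figure D1:**
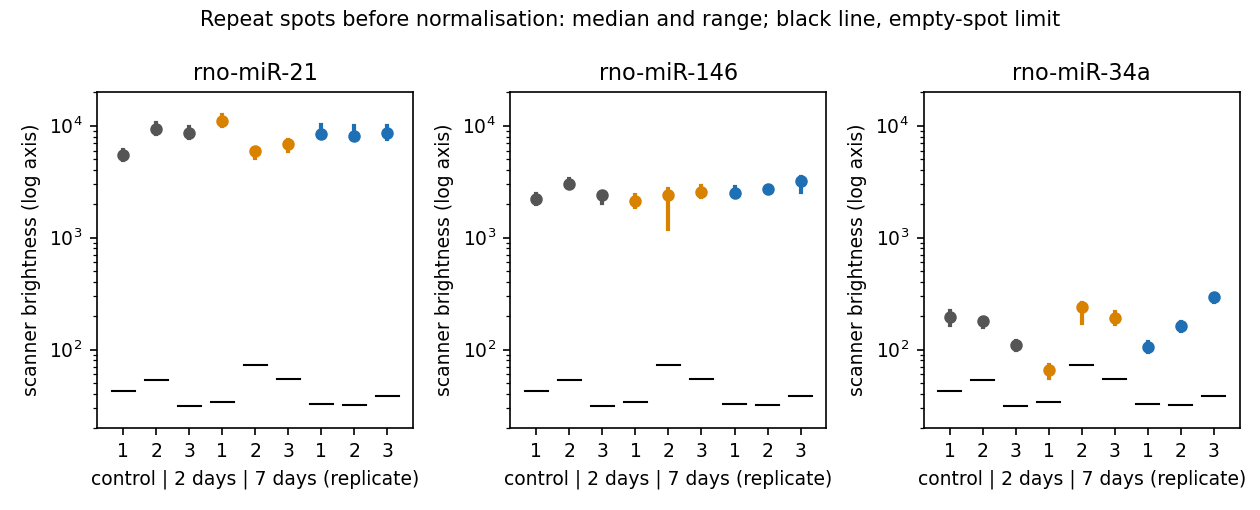
Scanner brightness before normalisation (log axis) of the 9 repeat spots of each miRNA on each of the 9 arrays; points are medians, vertical bars the lowest and highest spot, and black lines the empty-spot limit of that array. MiR-21 and miR-146 lie far above the limit on every array, while miR-34a on 2-day array 1 is 1.98 times its limit.

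Repeat spots of a probe on 1 array differed little. Their coefficient of variation had a median of 7.93% for miR-21, 7.36% for miR-146 and 7.48% for miR-34a. The largest, 20.2% for miR-146 on 2-day array 2, came from a single spot at 1187 beside a median of 2396. The standard error of the mean of 9 spots had a median of 0.035 log2 units for miR-146, against an SD between control arrays of 0.24. On 2-day array 2 the standard error for miR-146 was larger, at 0.12, beside an SD between 2-day arrays of 0.15. The errors that follow were computed from the spread between arrays, which includes that between spots.

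The main comparison used log2 values after background correction and quantile normalisation, which gives every array the same distribution of brightness. On this scale miR-146 was 11.32, 11.80 and 11.51 on the control arrays, 11.47, 11.19 and 11.24 after 2 days and 11.21, 11.06 and 11.12 after 7 days. Every 7-day value lay below every control value, and the 2-day values overlapped both. The means were 11.55 ± 0.24 for control, 11.30 ± 0.15 at 2 days and 11.13 ± 0.08 at 7 days (SD, n = 3 each). The log2 fold change was -0.25 ± 0.14 at 2 days (SE; limma adjusted p = 0.873) and -0.42 ± 0.14 at 7 days (1.33-fold lower; limma unadjusted p = 0.0166, adjusted p = 0.266 over 178 tested probes). It did not pass the threshold of 0.05 at either time. In whole muscle a lower value can mean fewer cells of a type or less miRNA per cell, which cannot be told apart. The 95% interval at 7 days ran from -0.73 to -0.10 before adjustment, and without normalisation the 7-day value was 0.14, of opposite sign. Leaving out each array in turn gave -0.36 to -0.12 at 2 days and -0.52 to -0.29 at 7 days, the smaller size each time without control array 2. At 7 days 12.4% of all tested probes likewise had every value below every control value, so that miR-146 shared this with 22 probes in all, itself included. Without normalisation 24.7% of the tested probes had every 7-day value above every control value. With centring on the array median 24.2% had every value below, and miR-146 overlapped the controls in both. Of the 8 scalings tried, only quantile normalisation and centring on the 75th percentile of detected probes put all its 7-day values below all controls. The share of all probes that did so under the latter was not counted. Under that centring miR-146 stood at -0.27 at 7 days, beside a median of -0.26 for all tested probes.

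MiR-21 was at 12.63, 13.28 and 13.33 on the control arrays, 13.61, 12.51 and 12.44 after 2 days and 13.02, 12.85 and 12.86 after 7 days. The highest and the lowest of the 9 values were both 2-day arrays, and each group overlapped the others. The means were 13.08 ± 0.39 for control, 12.85 ± 0.66 at 2 days and 12.91 ± 0.10 at 7 days (SD, n = 3 each). The log2 fold change was -0.23 ± 0.33 at 2 days (limma adjusted p = 0.974, 95% interval -0.98 to 0.53) and -0.17 ± 0.33 at 7 days (limma adjusted p = 0.946, interval -0.93 to 0.58). The interval at 2 days spans 0.505 to 1.44 times the control level of miR-21. Without 2-day array 1 the 2-day value of miR-21 was -0.59 (limma unadjusted p = 0.0243, adjusted p = 0.241, the lowest over all alternatives, which ran to 1.00), and without 2-day array 3 it was -0.02. Without control array 1 the 7-day value was -0.39 and without control array 3 it was -0.05, so single arrays set the size at both times.

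MiR-34a was at 7.78, 7.86 and 7.38 in controls, 7.06, 7.65 and 7.45 after 2 days and 7.15, 7.36 and 7.93 after 7 days. Its groups overlapped, and the highest of the 9 values was on a 7-day array. The means were 7.67 ± 0.26, 7.38 ± 0.30 and 7.48 ± 0.40 (SD, n = 3 each). The log2 fold change was -0.29 ± 0.24 at 2 days (limma adjusted p = 0.913, 95% interval -0.85 to 0.27) and -0.20 ± 0.24 at 7 days (limma adjusted p = 0.925, interval -0.76 to 0.36). Without 7-day array 3 the 7-day value was -0.41 and without 7-day array 1 it was -0.03. Without 2-day array 1 the 2-day value was -0.13 and without control array 3 it was -0.44.

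**Figure D2:**
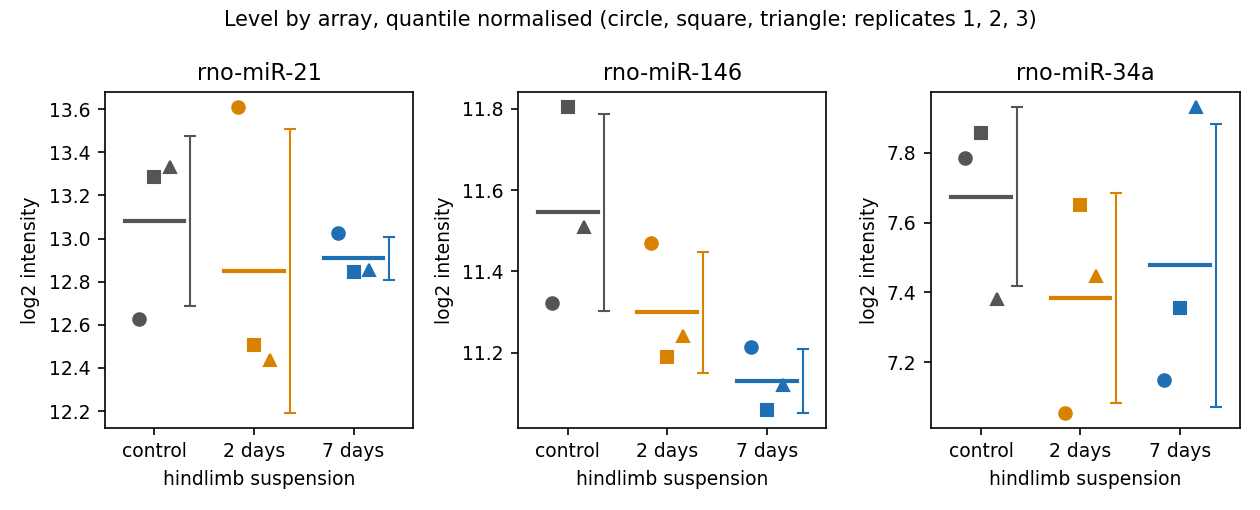
Log2 intensity after quantile normalisation of the 3 miRNAs on each array; circles, squares and triangles are replicates 1, 2 and 3, lines the group means and bars the SD (n = 3). The 7-day values of miR-146 (11.06 to 11.21) lie below its control values (11.32 to 11.80), and the other groups overlap.

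Both suspension times were set against the same 3 control arrays, so their differences share the error of the controls. In order of mean level on this scale, miR-146 ran from control through 2 days to 7 days, while miR-21 and miR-34a ran from control through 7 days to 2 days. Neighbours in these orders overlapped, and no pair of groups differed past the threshold. From 2 to 7 days the log2 fold change was -0.17 ± 0.14 for miR-146, 0.06 ± 0.33 for miR-21 and 0.09 ± 0.24 for miR-34a (limma adjusted p = 0.948, 0.96 and 0.948). A moderated F test over the 3 groups gave a limma adjusted p of 0.441 for miR-146 (unadjusted p = 0.0464) and 0.971 for both miR-21 and miR-34a. For scale, limma called 0.562% of the 178 tested probes at 2 days (1 probe), and 0% at 7 days and between 7 and 2 days. At an unadjusted p under 0.05 there were 12, 25 and 10 probes (6.74%, 14.0% and 5.62%), and of the 3 miRNAs only miR-146 at 7 days was among them. With limma's array weights, which give noisy arrays less influence, miR-146 at 7 days stood at -0.48 with an adjusted p of 0.0425, past the threshold, and 10 probes were called. Over all 29 alternatives its adjusted p ran from 0.0425 to 0.999, and this was the only one past the threshold.

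The direction of these differences depended on how arrays were scaled. At 2 days miR-146 and miR-34a had lower values than controls under all 8 scalings tried, from -0.38 to -0.12 for miR-146 and from -0.36 to -0.10 for miR-34a, and miR-21 under 7 of them, from -0.26 to 0.00, with none past the threshold. At 7 days each of the 3 miRNAs was lower under 7 scalings and higher without normalisation, where miR-146 stood at 0.14 ± 0.16, miR-21 at 0.19 ± 0.28 and miR-34a at 0.11 ± 0.43 (SE). The ranges at 7 days were -0.42 to 0.14 for miR-146, -0.22 to 0.19 for miR-21 and -0.30 to 0.11 for miR-34a. Between 7 and 2 days the sign was mixed for all 3. The scaling moved all probes with them: the median log2 fold change of the 178 tested probes at 7 days was -0.03 with quantile normalisation, -0.21 with median centring, -0.26 with centring on the 75th percentile of detected probes and 0.14 without normalisation.

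Relative to that median, miR-146 at 7 days stood at -0.39 with quantile normalisation and -0.13 with cyclic loess, but at -0.01 under the other 6 scalings. These 6 shift every probe of an array by the same amount, so equal relative values follow by construction and count as a single check. Under them miR-21 stood at 0.05 and miR-34a at -0.03 relative to the median at 7 days. At 2 days the relative values were -0.20 with quantile normalisation, -0.21 with cyclic loess and -0.19 under the constant scalings for miR-146. For miR-34a they were -0.24, -0.20 and -0.18, and for miR-21 -0.18, -0.05 and -0.07. These relative values carry no error of their own. The distance of miR-146 from the median of all probes at 7 days was thus large with quantile normalisation and near 0 under a shift by a constant, while at 2 days it differed little between scalings.

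**Figure D3:**
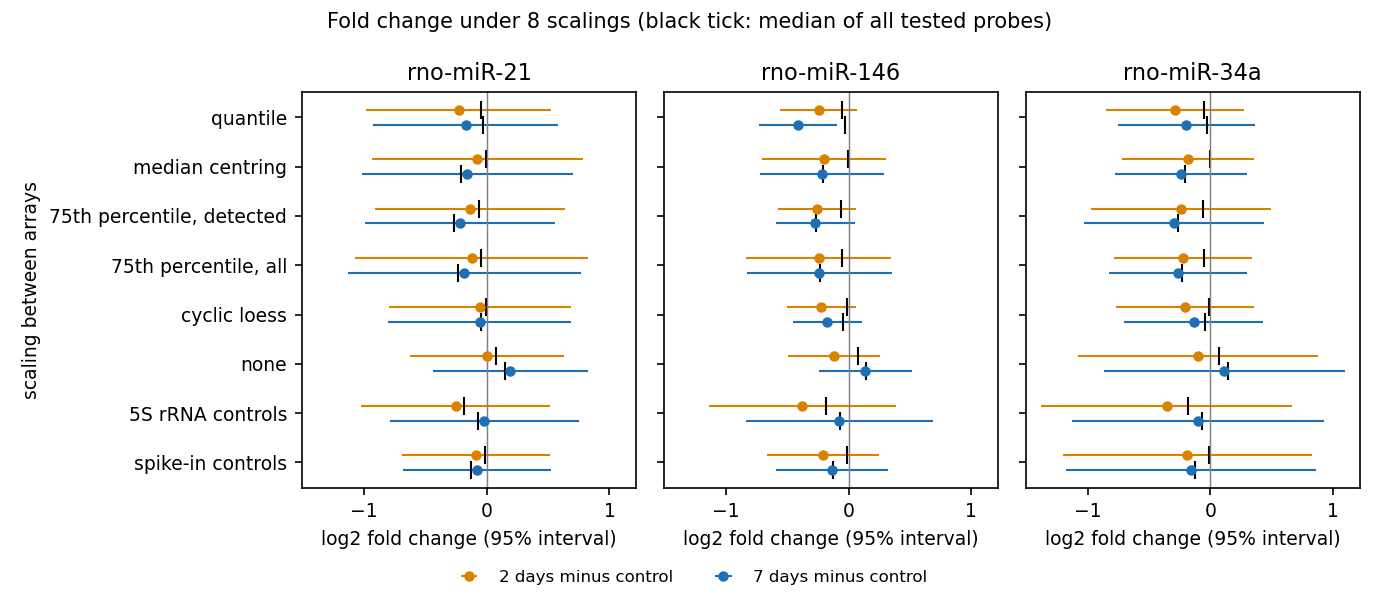
Log2 fold change of each miRNA against control with its 95% interval under 8 scalings of the arrays, at 2 days (orange) and 7 days (blue); black ticks are the median of all 178 tested probes. Without normalisation the 7-day values lie above 0 (0.11 to 0.19), and of all intervals only that of miR-146 at 7 days with quantile normalisation excludes 0.

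Array controls were used as scalings as well. Centred on the 6 probes for 5S ribosomal RNA, miR-146 stood at -0.38 ± 0.37 at 2 days and -0.08 ± 0.37 at 7 days, miR-21 at -0.26 ± 0.37 and -0.02 ± 0.37, and miR-34a at -0.36 ± 0.49 and -0.10 ± 0.49 (SE). The 5S signal itself had an SD of 0.58 log2 units over the control arrays, 0.09 over the 2-day arrays and 0.21 over the 7-day arrays, which widens these errors. Centred on the spike-in probes the 7-day values were -0.13 ± 0.20, -0.08 ± 0.27 and -0.16 ± 0.45 for miR-146, miR-21 and miR-34a. The spike-in signal was 0.27 log2 units higher on the 7-day arrays than on the controls (exact two-sided permutation p = 0.1, the smallest that 3 against 3 arrays allow), and the median brightness of detected probes was 0.35 log2 units higher (exact permutation p = 0.3). The part of this brightness difference in the 7-day values was not tested.

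A place within the array does not depend on any scaling that keeps the order of probes. Quantile normalisation itself sets values from the order of spots on an array. Places therefore hold nearly the same information as the quantile normalised values and are not a separate check on them. Among the 143 probes detected on all arrays, miR-146 held places 49, 43 and 46 from the brightest on the control arrays, 47, 50 and 50 after 2 days and 52, 53 and 53 after 7 days. The 7-day places lay below those of both other groups, with no overlap. The mean places were 46, 49 and 52.7, and 7 days differed from control and from 2 days at an exact permutation p of 0.1 each, two-sided and the smallest possible. Of the 143 probes, 11.9% had places at 7 days entirely below those of controls, and 2.10% entirely below those of 2 days. MiR-21 held places 36, 30 and 29 in controls, 27, 38 and 39 after 2 days and 33, 34 and 33 after 7 days. MiR-34a held places 102, 98 and 114, then 122, 100 and 110, then 118, 115 and 97. The places of miR-21 and miR-34a overlapped between all groups (exact permutation p = 0.5 to 1).

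**Figure D4:**
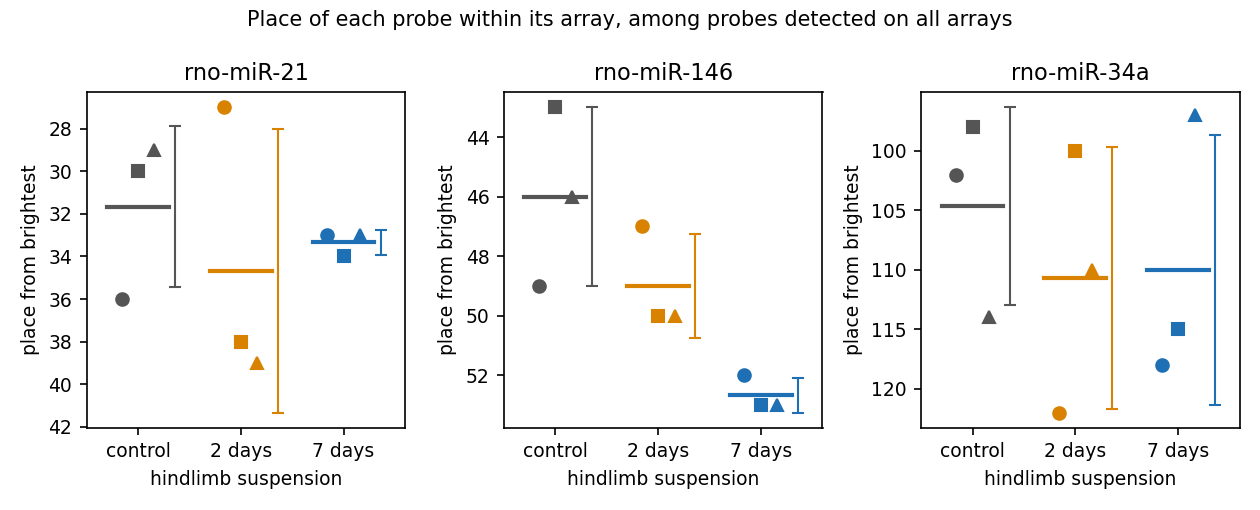
Place of each miRNA within its array, counted from the brightest of the 143 probes detected on all arrays (axis inverted, brighter probes on top); lines are group means and bars the SD (n = 3). MiR-146 holds places 43 to 49 in controls and 52 or 53 after 7 days.

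The authors' own value table, whose processing is not given in the sources used here, held miR-146 at 2399, 3198 and 2963 in controls, 2719, 2254 and 2308 after 2 days and 2304, 2373 and 2257 after 7 days. Its 7-day values likewise lay below all controls, as did those of 12.3% of the 162 probes in that table, and the log2 fold change was -0.29 (limma adjusted p = 0.393). In the same table miR-21 had means of 8369 ± 1803, 8462 ± 3772 and 7611 ± 736 in controls, at 2 days and at 7 days (SD, n = 3 each), and miR-34a of 144 ± 25.3, 104 ± 22.7 and 131 ± 43.5 in the same order. Neither was separated from controls at any time.

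Ratios between the 3 miRNAs on the same array are free of a constant scaling and compare them with each other. The log2 ratio of miR-21 to miR-146 was 1.32, 1.57 and 1.88 on the control arrays, 2.40, 1.33 and 1.41 after 2 days and 1.80, 1.65 and 1.48 after 7 days. The mean difference from control was 0.12 at 2 days and 0.06 at 7 days, within the spread of the arrays (exact permutation p = 0.8 for each). For miR-21 over miR-34a the mean differences were 0.10 and 0.08, and for miR-146 over miR-34a -0.02 and 0.02 (exact permutation p = 0.8 to 1). On 2-day array 1 the ratio of miR-21 to miR-34a was 6.89, the highest of the 9 arrays, against 4.54 and 5.04 on the other 2-day arrays. That array had the lowest weight when arrays were weighted by their fit (0.229). No unequal change of the 3 miRNAs was detectable with 3 arrays a group.

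Other miRNAs tied to the same processes were read from lists for inflammation, fibrosis and p53. Of 14 inflammation miRNAs 10 were tested, and none was called at 2 or 7 days. At 2 days 5 had higher and 5 lower values, and at 7 days 4 and 6, with medians of -0.05 and -0.03 log2 units (both signs over the scalings), beside -0.05 and -0.03 for all tested probes. The smallest p-values after miR-146 belonged at 2 days to miR-223, a myeloid miRNA (-0.57 ± 0.42), and miR-181b (-0.15 ± 0.12), and at 7 days to miR-181b (-0.23 ± 0.12) and miR-181c (0.19 ± 0.16). Over the 8 scalings miR-223 at 2 days ran from -0.72 to -0.47, whereas miR-181b and miR-181c took both signs at 7 days. With quantile normalisation miR-223 at 2 days had a limma adjusted p of 0.913. Before normalisation its 2-day brightness, 741 to 846, lay within the range of the controls, 663 to 2116.

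Of 17 fibrosis miRNAs 14 were tested and none was called. At 2 days 6 had higher and 8 lower values (median -0.06), and at 7 days 7 and 7 (median -0.04, which took both signs over the scalings). MiR-29b, whose family targets collagen messenger RNAs, stood at 0.41 ± 0.33 at 2 days and 0.78 ± 0.33 at 7 days (limma adjusted p = 0.345), and at 7 days it ran from 0.78 to 1.28 over the 8 scalings. MiR-214, a miRNA of fibroblasts and smooth muscle, stood at -0.52 ± 0.19 at 7 days (limma adjusted p = 0.277; -0.54 to -0.13 over the scalings). MiR-24 stood at -0.15 ± 0.09 at 2 days and -0.14 ± 0.09 at 7 days and miR-192 at -0.19 ± 0.13 at 2 days, and without normalisation the last 2 of these were above 0. MiR-21 is a member of this list and had a larger p-value than these at both times.

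Of 14 p53 miRNAs 10 were tested and none was called. At each time 2 had higher and 8 lower values, with medians of -0.06 and -0.10, beside 107 and 104 of the 178 tested probes with lower values. Without normalisation the 7-day median was 0.15. MiR-145, which p53 helps to process in human cells, stood at -0.52 ± 0.19 at 7 days (limma adjusted p = 0.277) and miR-107 at -0.27 ± 0.20 at 2 days and -0.48 ± 0.20 at 7 days (limma adjusted p = 0.32 at 7 days). MiR-16 stood at -0.09 ± 0.07 at 7 days and above 0 without normalisation. MiR-34a had the third smallest p-value of this list at 2 days, after miR-192 and miR-107, and at 7 days a larger one than miR-145, miR-107 and miR-16. MiR-34b, miR-34c and miR-215 of this list were detected on no array. Of the inflammation list miR-142-3p was detected on no array.

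**Figure D5:**
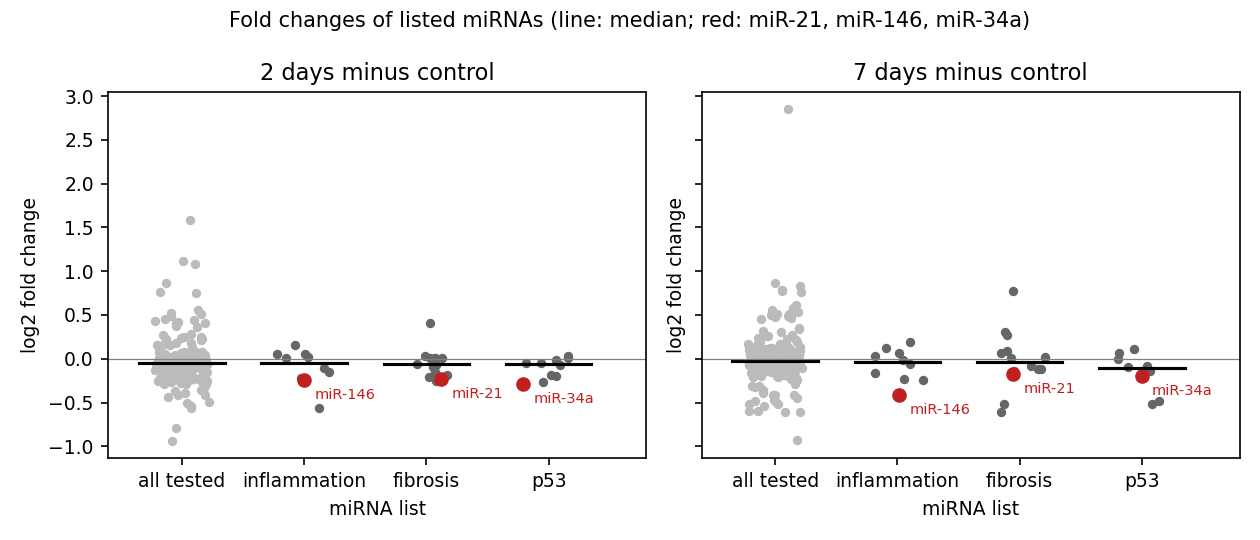
Log2 fold change with quantile normalisation of all 178 tested probes and of the tested members of the inflammation (10), fibrosis (14) and p53 (10) lists at 2 and 7 days; lines are medians and red points miR-21, miR-146 and miR-34a. The list medians (-0.10 to -0.03) lie close to those of all tested probes (-0.05 and -0.03), and the red points lie below 0 with this scaling.

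Markers of other cells were measured on the same arrays. The striated muscle miRNAs, the defining markers of the labelled tissue, had a summed brightness of 152850 to 174300 over all arrays, and 5 of 6 were detected on every array. White blood cell markers were partly absent: miR-142-3p was detected on no array and miR-142-5p on 4 of 9, while miR-223 and miR-150 were detected on all. The summed brightness of the 4 white blood cell probes was 4880 to 7415 in controls, 5858 to 7633 after 2 days and 7663 to 8886 after 7 days. After quantile normalisation it was 5881 to 8623, 5702 to 8882 and 6879 to 7463. Most of each brightness sum came from miR-150, with means of 5151, 5995 and 7117 on control, 2-day and 7-day arrays. Those of miR-223 were 1251, 805 and 1264. The 4 smooth muscle and fibroblast markers (miR-143, miR-145, miR-199a and miR-214) all had lower values at 7 days, with a median of -0.52 (-0.53 to -0.12 over the scalings) and none called, although miR-143 was above 0 under 2 of the 8 scalings. Their summed quantile normalised level was 16924 to 20042 in controls, 14302 to 18026 after 2 days and 13450 to 16255 after 7 days. On this scale that is the same order of groups as for miR-146. Other named miRNAs had this order of means too, miR-107, miR-181b and the red cell miRNA miR-451 among them. The share of all tested probes with this order was not counted. Before normalisation their summed brightness was 14484 to 18476 in controls, 10622 to 19781 after 2 days and 14160 to 20287 after 7 days. Those ranges overlapped without that order. MiR-451 stood at -0.92 ± 0.35 at 7 days (limma adjusted p = 0.283; -0.92 to -0.49 over the scalings), and miR-144, also of red cells, was detected on no array. The part of these cells in the values of miR-146 was not tested.

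The tested probes most alike to each miRNA over the 9 arrays were found by Pearson correlation of quantile normalised levels. For miR-21 they were let-7i (r = 0.95), miR-150 (0.93), miR-132 (0.92), miR-15b (0.91) and miR-28 (0.90). For miR-146 they were miR-351 (0.87), miR-222 (0.85), miR-151* (0.80), miR-20a (0.80) and miR-221 (0.77). For miR-34a they were miR-422b (0.81), miR-130a (0.80), miR-93 (0.75), miR-324-3p (0.72) and the array's probe MM_240 (0.72). These are the highest values over all other tested probes and come from 9 arrays that share brightness and normalisation. They also include differences between group means. Within groups, over the 9 arrays together, r was 0.89, 0.72, 0.73, 0.57 and 0.34 for the 5 probes of miR-146, in the order given. It was 0.91 to 0.98 for those of miR-21 and 0.68 to 0.89 for those of miR-34a. Without normalisation the value of miR-28 with miR-21 was 0.01 and that of miR-221 with miR-146 was 0.27, while miR-130a with miR-34a was 0.96.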

How the data were processed

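Small RNA of 9 soleus samples (3 control, 3 at 2 days, 3 at 7 days) was hybridised to arrays of 1 colour. The scanner files, as deposited, give the mean intensity of each of 3968 spots without normalisation, with no local background and no batch column, so no batch could be a block; the image software is not given in the sources used here. A value table of whole-number intensity for 162 probes, also from the authors, was taken as linear. Its scale, centring and background steps are unknown, and it served as an alternative.

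With limma 3.58.1 in R 4.3.3, intensity was corrected by normexp (offset 50, fitted on all spots). The log2 intensity of miRNA spots was then quantile normalised and the 9 repeat spots of a probe averaged, starting from the deposited files. A probe was detected when more than 0.5 of its spots exceeded the 95th percentile of 614 empty spots, and tests covered the 178 of 334 probes that all arrays of some group detected. All 9 arrays entered a fit with a mean per group (lmFit, eBayes; 7.78 degrees of freedom for the members), with Benjamini-Hochberg adjustment over the 178. Single values were compared by exact permutation tests, and correlations computed in Python 3.11.15 with scipy 1.17.1. The code was tested on simulated data. The number of arrays limits the precision.

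Same-numbered arrays were checked for pairing: the correlations of their deviations from group means ran from -0.40 to 0.35, so the numbers were not taken to pair them. Alternatives were 7 other scalings, other background, filter and spot settings, the authors' table, array weights, a replicate block and leaving out each array. The text names the 3 members, the 3 smallest p-values per list and time, same-seed probes, cell markers and the 5 probes most correlated with each member. Members and lists were chosen with earlier results of these data known. List members without a probe of that name (miR-155, miR-101, miR-15a) were not analysed here.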

Additional observations from a re-analysis of the deposited data

How the results depend on the processing

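At 2 days the 3 miRNAs kept their direction under all 29 alternatives except miR-21 without normalisation (0.00056). At 7 days they did so except without normalisation, at 0.19 for miR-21, 0.14 for miR-146 and 0.11 for miR-34a, and the only call gained was miR-146 with array weights (-0.48). From 2 to 7 days miR-21 changed sign with median centring (-0.082), the 75th percentile of detected (-0.081) or all probes (-0.061), cyclic loess (-0.0020), the median of spots (-0.027) and the authors' table (-0.070 at either pseudocount). MiR-146 did with the 75th percentile of all probes (0.0044), cyclic loess (0.049), no normalisation (0.26), 5S centring (0.30) and spike-in centring (0.074), and miR-34a with median centring (-0.061), the 75th percentile of detected (-0.059) or all probes (-0.039) and array weights (-0.082). Probes called at 2 days numbered 1 in the main comparison, 0 with median, 75th percentile, 5S or spike-in centring, no normalisation, empty-spot subtraction or only 2 groups, 2 without a filter and 4 with array weights. At 7 days they numbered 0, against 1 with median centring, 75th percentile of all probes or 5S centring, 2 with the 75th percentile of detected probes or the authors' table, 5 with only 2 groups and 10 without normalisation or with array weights. The median of all tested probes at 7 days was -0.26 with the 75th percentile of detected probes. The ratio of miR-21 to miR-146 at 7 days was -0.017 with the median of spots. The ratio of miR-146 to miR-34a was 0.019 without background correction, 0.17 with empty-spot subtraction and 0.25 in the authors' table at 2 days, -0.024 and -0.13 with the last 2 at 7 days, and -0.0034, -0.20 and -0.37 between 7 and 2 days. The difference in place of miR-21 between 7 and 2 days was -0.67 with the median of spots. The cause of these changes was not tested.

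Leaving out each array in turn gave 0 to 4 probes called at 2 days and 0 to 3 at 7 days, the most each time without 2-day array 1. Between 7 and 2 days it gave -0.15 to 0.41 for miR-21 and -0.13 to 0.26 for miR-34a, and place differences of -0.83 to 5.17 and -5.83 to 6. The ratio of miR-21 to miR-146 ran from -0.22 to 0.31 at 2 days, -0.079 to 0.20 at 7 days and -0.26 to 0.28 between them. That of miR-21 to miR-34a ran from -0.60 to 0.58, -0.30 to 0.41 and -0.50 to 0.68, and that of miR-146 to miR-34a from -0.37 to 0.26, -0.22 to 0.28 and -0.24 to 0.40. A replicate block left the fold changes as they were (miR-146 at 7 days -0.42, limma adjusted p = 0.385) and the calls at 1, 0 and 0. Signal over background limits miR-34a most.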

Other observations

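Markers of 2 further cell types had no call at either time. The endothelial miRNA miR-126 stood at -0.07 log2 units at 2 days and 0.00 at 7 days with quantile normalisation, and at 7 days it took both signs over the 8 scalings. The nerve miRNAs miR-128a and miR-128b stood at -0.25 each at 2 days and -0.10 each at 7 days with quantile normalisation. At 7 days each was above 0 under 6 of the 8 scalings, up to 0.40 and 0.39, and -0.10 was the lowest value. MiR-9 was detected on 1 array and miR-124a on 3.

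Across the 9 arrays, 6 relations between the 3 miRNAs were computed, 3 on each of 2 scales. With quantile normalisation miR-21 and miR-146 had a Pearson r of 0.63 (exact permutation p = 0.068, adjusted 0.238) and a Spearman rho of 0.53 (exact permutation p = 0.148), and r was 0.57 without the 2 arrays farthest from the median of miR-21. Without normalisation their r was 0.25 (exact permutation p = 0.511; rho = 0.18), and -0.34 without the 2 farthest arrays. MiR-21 and miR-34a had r = -0.40 (exact permutation p = 0.274; rho = -0.35) with quantile normalisation, which was 0.07 without 2-day array 1 and control array 3. Without normalisation they had r = -0.61 (exact permutation p = 0.0792, adjusted 0.238) and rho = -0.60, and r was -0.57 without the 2 farthest arrays. MiR-146 and miR-34a had r = 0.10 and rho = 0 with quantile normalisation (exact permutation p = 0.804 for r), and r was -0.39 without the 2 arrays farthest from the median of miR-146. Without normalisation they had r = 0.52 and rho = 0.35 (exact permutation p = 0.152 for r), and r was 0.24 without the 2 farthest arrays. No relation passed the threshold after adjustment, and the groups hold too few arrays for a value within each.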
